A study of Mus musculus with 12 samples.

Results

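The MHC class II genes described here are 10 genes of antigen presentation, chosen by name: the chains H2-Aa, H2-Ab1, H2-Ea and H2-Eb1, the invariant chain Cd74, the peptide loading genes H2-DMa, H2-DMb1, H2-Oa and H2-Ob, and the transactivator Ciita. They are covered by 22 of the 45101 probe sets of the array, a probe set being a group of short probes read together as 1 signal. Of these, 21 passed the filter on low signals (on 2 or more of the 12 arrays it exceeded that array's median), and 9 of the 10 genes were among the 12429 genes tested. H2-DMb1 had no probe set of its own, since both of its probe sets are also annotated to the neighbouring copy H2-DMb2, so it is described only through those shared probe sets.

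The dendritic cells came from cultures of marrow kept over 10 days in GM-CSF (20 ng/ml), taken from BALB/c and BL6 mice aged 6 to 8 weeks. Cultures held no retinoid (control), all-trans-retinoic acid (RA, 10 nmol in the labels) or the retinoic acid receptor alpha antagonist that the titles call Ro (100 nmol in the labels), each without or with LPS (1 ug/ml), a bacterial cell wall component that matures dendritic cells. The study asked which of these changes in expression recur in both strains. Each of the 6 conditions was measured on 1 BALB/c array and 1 BL6 array, so the spread within a condition is also the difference between strains, and p-values measure only the spread between these cultures. All groups share GM-CSF. The RA and Ro doses differ and both are compared with the same arrays without retinoid, so their values are given side by side and not tested against each other.

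MHC class II molecules are pairs of an alpha and a beta chain that show peptides from the endosomes of dendritic cells, macrophages and B cells to CD4+ T cells. The invariant chain fills the groove while the pair is carried to the endosome, H2-DM then exchanges its last fragment for peptides, and H2-O restrains H2-DM. Ciita binds no DNA itself: it is recruited to class II promoters by the RFX, NF-Y and CREB factors that sit on their X and Y boxes. The C57BL/6 haplotype is a known natural null for H2-Ea.

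In the GRCm38.p6 annotation of RefSeq, the H2 members lie on chromosome 17 in the order H2-Oa (chr17:34092379-34095234), H2-DMa (chr17:34119693-34139101), H2-DMb1 (chr17:34153191-34160229), H2-Ob (chr17:34238905-34245908), H2-Ab1 (chr17:34263227-34269418), H2-Aa (chr17:34282744-34287823), H2-Eb1 (chr17:34305867-34316674) and H2-Ea (chr17:34341952-34344645). H2-Ea is listed there as a transcribed pseudogene and the other H2 members as protein-coding genes. Ciita lies on chromosome 16 (chr16:10480014-10531064).

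Promoter sequences are shown as a description of the X and Y boxes, and the part of these boxes in any change given below was not tested. The RefSeq promoter table (250 bases before to 50 after each start, GRCm38.p6) held 6 members: H2-Oa, H2-DMa, H2-DMb1, H2-Ob, H2-Aa and H2-Eb1. The windows below, of 5 of these members, run 5′ to 3′ from 115 to 25 bases before the start. Capitals mark an X box core (TAGNAAC) and a Y box core (ATTGG, or CCAAT on the other strand), both searched on both strands. The letters of the X box core were read from these promoters, so its presence in them is a description.
H2-DMb1, chr17:34153076-34153166, plus strand: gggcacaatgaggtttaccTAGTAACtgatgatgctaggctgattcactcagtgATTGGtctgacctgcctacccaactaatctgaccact
H2-Ob, chr17:34238790-34238880, plus strand: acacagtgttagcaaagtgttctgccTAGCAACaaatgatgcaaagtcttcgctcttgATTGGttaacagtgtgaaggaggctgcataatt
H2-Eb1, chr17:34305752-34305842, plus strand: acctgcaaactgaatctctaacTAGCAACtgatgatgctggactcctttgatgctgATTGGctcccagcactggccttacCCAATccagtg
H2-Oa, chr17:34092264-34092354, plus strand: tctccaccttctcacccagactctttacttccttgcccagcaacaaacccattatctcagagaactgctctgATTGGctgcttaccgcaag
H2-Aa, chr17:34287848-34287938, minus strand: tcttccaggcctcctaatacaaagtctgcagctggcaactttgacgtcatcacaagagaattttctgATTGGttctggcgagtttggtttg
H2-DMb1, H2-Ob and H2-Eb1 hold the X box core followed on the same strand by the Y box core, with gaps of 28, 25 and 27 bases between them. H2-Oa and H2-Aa hold only the Y box core by these letters in this window, and H2-DMa, not printed, holds neither there in either of its 2 entries. Both H2-DMa windows (chr17:34122717-34122807 and chr17:34125403-34125493, plus strand) lie inside the gene span given above. The bases before the first base of that span were not searched. Of 32851 promoters in the table, 3744 (11.4%) hold the X box core and 12289 (37.4%) the Y box core. In 110 of them (0.335%), these 3 members among them, the X box core is followed within 30 bases by the Y box core on its strand.

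Signals are deposited on a linear scale. Over all 12 arrays they ran from 0.0195 to 17488, with array medians between 21.4 and 41.8. The highest median, 41.8, is used below as the mark of background. Of 9 conventional dendritic cell genes on the array, Itgax (1013 to 6159), Batf3 (344 to 3240), Dpp4 and Naaa were above background on all 12 arrays and Zbtb46 on 11. Kmo was above it on 8, Flt3 (4.89 to 101) on 6 and Xcr1 (1.09 to 68.5) on 2. Cd209a was above it on the 6 arrays without LPS and at 15.4 to 36.8 on those with LPS. Macrophage and granulocyte genes were present too. Summed per array, signals were 18244 to 77339 for 10 macrophage genes and 404 to 51859 for 8 granulocyte genes. The 9 dendritic cell genes summed to 2553 to 15895. Of 7 B cell genes on the array, 5 lay below background on every array. The exceptions were Cd79b, at most 148, and Pax5, at most 53.8. RNA was taken from whole cultures, so fewer cells of a type and less RNA per cell cannot be told apart.

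Changes are given as log2 differences of (signal + 16) relative to the median change of all tested genes in the same comparison, ± the standard error of the limma fit, and folds are computed from them. The test itself is against 0 at the deposited scaling, with p-values adjusted by Benjamini and Hochberg over all tested genes, or over all kept probe sets where a probe set is named. "Rose" and "fell" are used for adjusted p under 0.05. Where signals of groups are said not to overlap, the share of all genes that did not overlap was not counted.

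**Figure D1:**
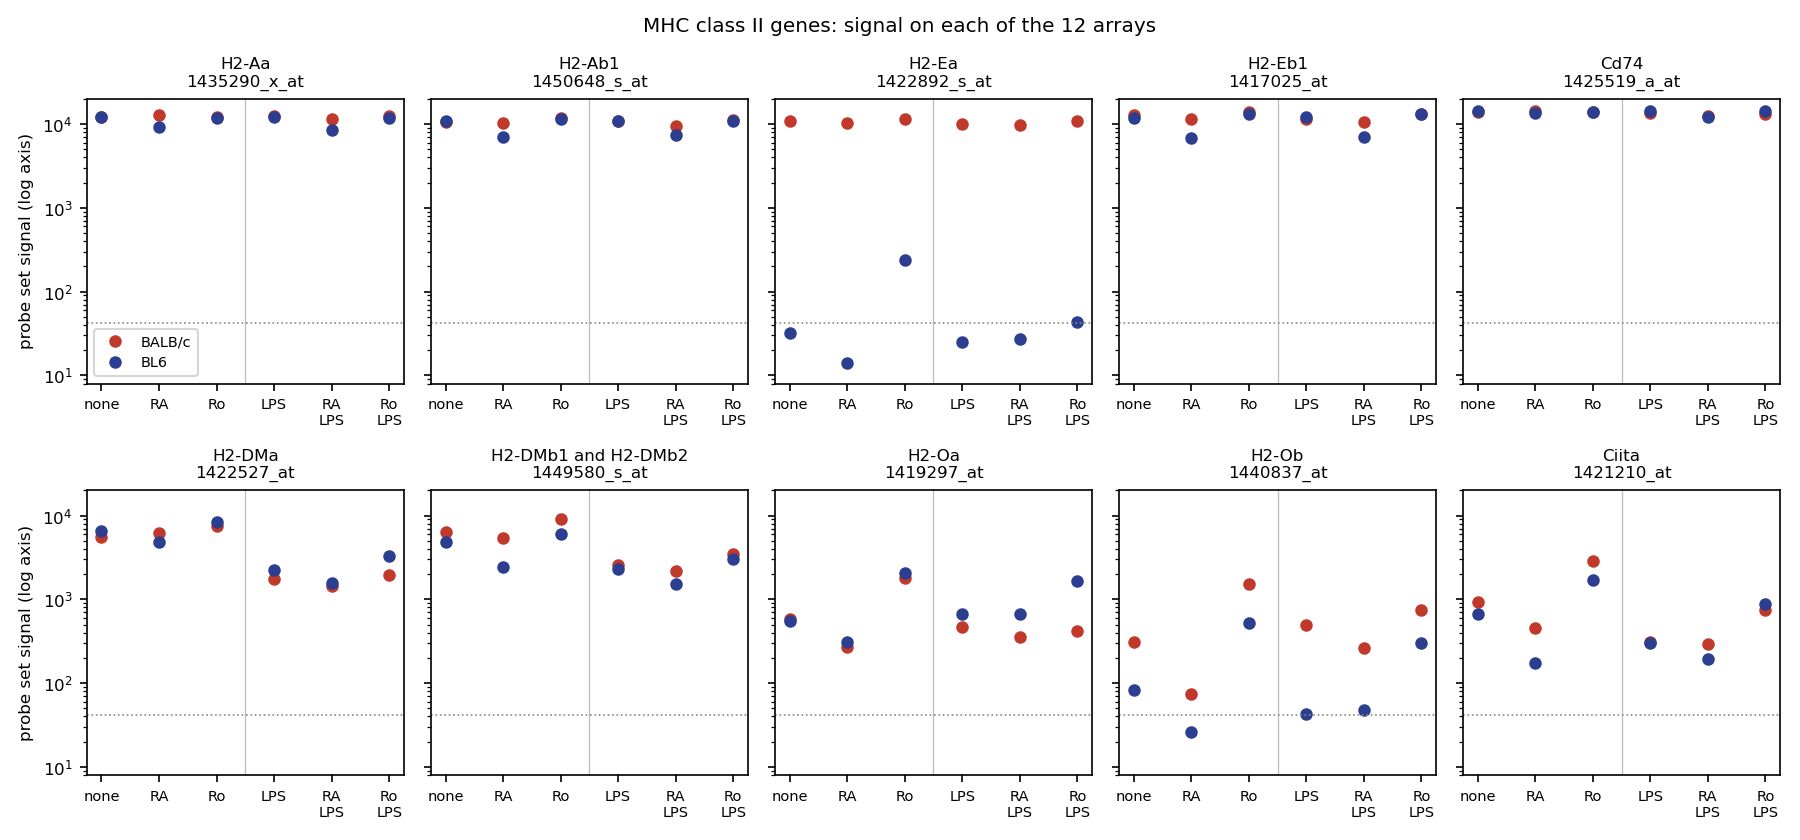
Signal (log axis) of the probe set that represents each member on each of the 12 arrays, by condition, with BALB/c in red and BL6 in blue; the dotted line is the highest array median, 41.8. H2-Aa, H2-Ab1, H2-Eb1 and Cd74 lie near the top of the scale in all conditions, H2-Ea is high on BALB/c arrays alone, H2-DMa and the shared H2-DMb probe set are lower with LPS, and H2-Ob and Ciita are highest with Ro.

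The chains that form the class II molecule at the cell surface were among the brightest signals of the arrays. Cd74, H2-Aa, H2-Ab1 and H2-Eb1 gave 48 values between 6821 and 14384, of which 41 were above 10000, while 0.360% of all signals on the arrays were above 10000. Cd74, the invariant chain, ran from 12083 through a median of 13935 to 14384, with an SD of 701 over the 12 arrays. The highest signal of any probe set was 17488, and whether the class II signals saturated was not tested.

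The first comparison asked what LPS did to the members, with 6 arrays against 6. H2-DMa and Ciita fell, the shared H2-DMb1 and H2-DMb2 probe sets fell as well, and the chains and Cd74 kept nearly the same signals. Of the 9 members tested, 0 rose and 2 fell, beside 58.7% of all tested genes past the threshold (10.9% higher and 47.7% lower; 24.4% and 28.7% after quantile normalization). The median tested gene was lower by 0.41 with LPS (a log2 change of -0.41), and the median relative change of the members was 0.34.

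H2-DMa encodes the alpha chain of the peptide editor H2-DM. Without LPS its BALB/c signals were 5585 in control, 6266 with RA and 7490 with Ro, and its BL6 signals were 6591, 4891 and 8404. With LPS the BALB/c signals were 1771 without retinoid, 1449 with RA and 1944 with Ro, and the BL6 signals were 2246, 1561 and 3261. All 6 arrays with LPS lay below all 6 without, and within a strain and retinoid state the signal was 2.58-fold to 4.32-fold lower with LPS. H2-DMa fell by 1.30 ± 0.13 relative to the median gene (2.46-fold lower, adjusted p = 9.7e-07 by limma), and its second, dimmer probe set fell by 1.69 ± 0.20 (adjusted p = 3.31e-06). The fall passed in each retinoid state alone: by 1.07 ± 0.22 without retinoid (adjusted p = 3.39e-04), by 1.47 ± 0.22 with RA (adjusted p = 2.17e-04) and by 1.31 ± 0.22 with Ro (adjusted p = 4.19e-04). The background of called genes in those 3 comparisons was 45.5%, 35% and 29.8%, and H2-DMa passed in all 3 whichever array was left out.

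The beta chain of H2-DM was read by the probe sets shared by H2-DMb1 and H2-DMb2. The brighter one gave 6449, 5465 and 9027 on the BALB/c arrays with no retinoid, RA and Ro, and 4853, 2421 and 6038 on the BL6 arrays. With LPS it gave 2591, 2181 and 3447 in BALB/c and 2329, 1517 and 3057 in BL6, lower in every strain and retinoid state although the ranges overlapped. It fell by 0.71 ± 0.13 (adjusted p = 1.52e-05 over probe sets) and the other shared probe set fell by 0.74 ± 0.18 (adjusted p = 1.97e-04), beside 56.8% of all kept probe sets past the threshold. Which of the neighbouring copies carried the change cannot be told apart in these probe sets. The 3 probe sets of H2-DMb2 alone also fell, by 0.82 ± 0.21, 1.57 ± 0.23 and 1.23 ± 0.34 (adjusted p = 3.58e-04, 1.42e-05 and 0.00135).

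Ciita, the transactivator, was highest with Ro and lowest with RA or LPS. Its BALB/c signals without LPS were 926 in control, 449.8 with RA and 2903 with Ro, and its BL6 signals were 660.0, 173 and 1712. With LPS they were 307, 291 and 748 in BALB/c and 303, 194 and 881 in BL6. By condition the order ran from Ro, whose arrays lay above all others, to a pair of conditions with overlapping ranges (Ro with LPS, and control), and then to RA, LPS and RA with LPS, of which the RA range held both LPS values and overlapped that of RA with LPS.

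Ciita fell with LPS by 0.58 ± 0.24 (1.50-fold, adjusted p = 0.0034), and its other probe sets fell by 0.74 ± 0.23 and 0.59 ± 0.27 (adjusted p = 0.00111 and 0.00685 over probe sets). The call averaged over retinoids was lost after quantile normalization (adjusted p = 0.0631) and when arrays were scaled to a common median (0.0531), and in BL6 alone (0.161). It fell without retinoid by 0.79 ± 0.33 (adjusted p = 0.00844) and with Ro by 1.10 ± 0.33 (adjusted p = 0.00798), while with RA, where it was low without LPS, the change was 0.17 ± 0.33 (adjusted p = 0.63). The call without retinoid was lost with a common median (adjusted p = 0.0904), and without the BALB/c control array (0.0524) or the BALB/c LPS array (0.0776). The call with Ro was lost without the BALB/c Ro array (0.0847) or the BALB/c array with Ro and LPS (0.108).

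The chains and Cd74 moved little in signal with LPS. H2-Eb1, a beta chain, gave 12848 in control and 11502 with LPS in BALB/c, and 11745 and 12277 in BL6, so the strains moved in opposite directions. H2-Aa gave 12001 and 12561 in BALB/c and 12051 and 12092 in BL6. Relative to the median gene H2-Aa, H2-Ab1, H2-Eb1 and Cd74 were higher by 0.38 ± 0.09, 0.37 ± 0.09, 0.37 ± 0.11 and 0.34 ± 0.07, yet at the deposited scaling their own changes were between -0.07 and -0.03 and did not pass (adjusted p = 0.824, 0.758, 0.765 and 0.406). After quantile normalization they did not pass either (adjusted p between 0.513 and 0.969), and with arrays scaled to a common median all 4 passed as higher (adjusted p between 0.0137 and 0.0168). H2-Ea (0.06 ± 0.33), H2-Oa (0.25 ± 0.31) and H2-Ob (0.46 ± 0.33) did not pass with LPS under any of these scalings.

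H2-Ob and H2-Oa, the chains of the H2-DM inhibitor, gave different LPS values by retinoid state. In RA cultures their LPS changes were 1.12 ± 0.40 for H2-Oa (adjusted p = 0.183) and 1.50 ± 0.42 for H2-Ob (adjusted p = 0.0624), and both passed as higher after quantile normalization (0.0185 and 0.0235). In Ro cultures H2-Oa fell by 0.83 ± 0.40 (adjusted p = 0.0467), a call lost under 14 of 22 other settings, among them leaving out the BALB/c array with Ro and LPS (adjusted p = 0.5). The probe set shared by H2-Ob and the predicted gene Gm20506 rose with LPS by 1.30 ± 0.23 (adjusted p = 0.00454), and the probe set of H2-Ob alone did not pass. In limma's interaction tests no member passed for Ro with LPS, RA with LPS or strain with LPS, where 0.668%, 0% and 0.121% of all genes passed. At an unadjusted p under 0.05 they held 0, 1 and 0 of the 9 members, beside 1908, 701 and 1412 of the 12429 tested genes.

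The markers of other cells moved with LPS too. The summed signal of the dendritic cell list was 8713 to 15895 without LPS and 2553 to 6847 with it, and 6 of its 9 tested genes fell and 1 rose. The granulocyte list went from between 11349 and 51859 to between 404 and 5167, and 8 of 8 genes fell. Their part in the fall of H2-DMa and Ciita was not tested.

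**Figure D2:**
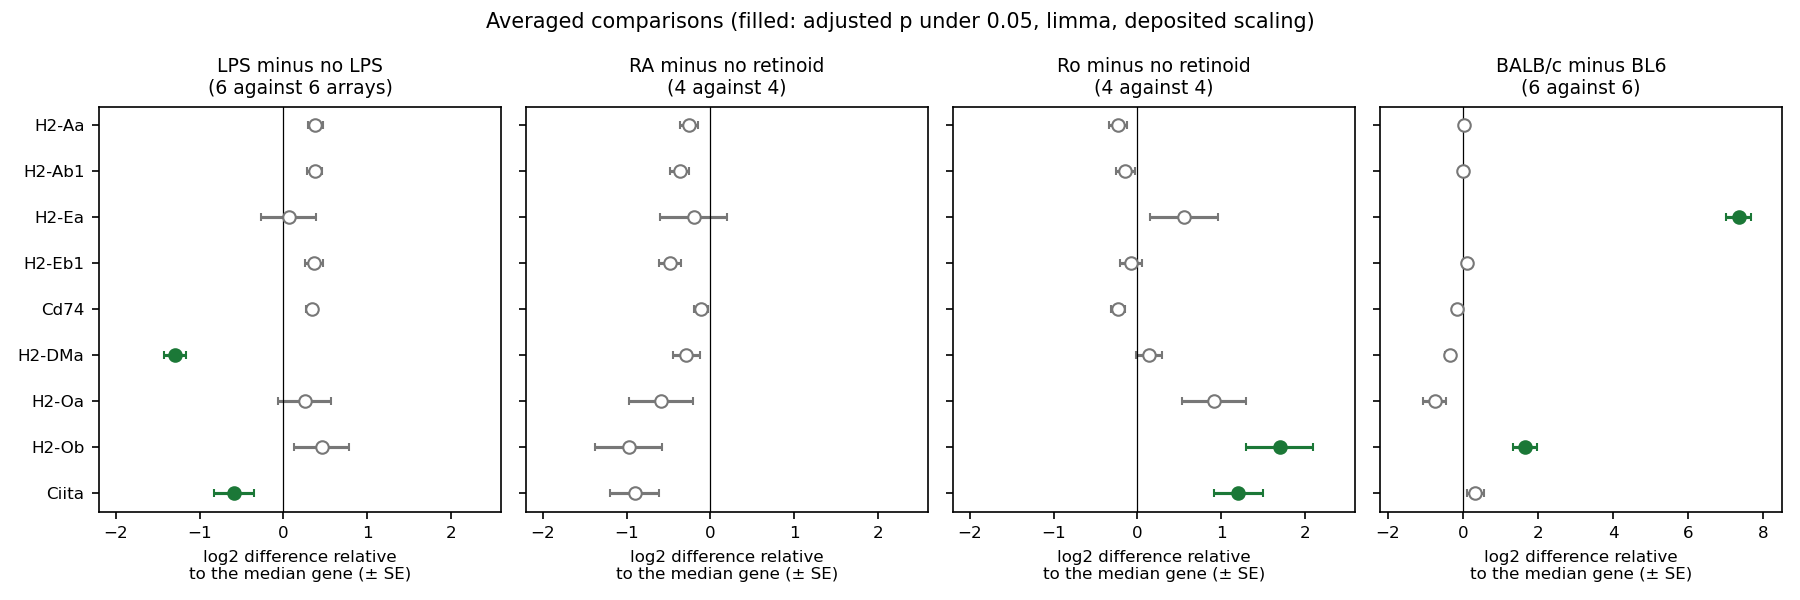
Log2 difference relative to the median gene (± SE of the limma fit) of 9 members in 4 comparisons averaged over the other factors, filled where the adjusted p was under 0.05; the axis of the strain panel is wider than the others. H2-DMa and Ciita are lower with LPS, H2-Ob and Ciita higher with Ro, no point is filled for RA, and H2-Ea and H2-Ob are higher in BALB/c.

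The next comparison asked what blocking the receptor with Ro did, with 4 arrays against the 4 without retinoid. Ciita and H2-Ob rose, H2-Oa was higher on 3 of the 4 pairs of arrays, and the chains and Cd74 did not pass. Of 9 members, 2 rose and 0 fell, beside 18.4% of all tested genes that passed, 14% higher and 4.35% lower (7.58% and 6.62% after quantile normalization). The median relative change of the members was 0.14, and the median tested gene was higher by 0.22.

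Ciita rose with Ro in all 4 pairs of strain and LPS state: 3.13-fold and 2.44-fold in BALB/c without and with LPS, and 2.59-fold and 2.90-fold in BL6. These pairwise ratios are of deposited signals. Relative to the median gene it rose by 1.20 ± 0.29 (2.30-fold, adjusted p = 0.00871). Its second probe set rose by 1.05 ± 0.29 (adjusted p = 0.0168 over probe sets), and the dimmest gave 0.70 ± 0.33 (adjusted p = 0.0903), beside 13% of kept probe sets past the threshold. In 1 strain alone the change was of like size and did not pass (adjusted p = 0.115 in BALB/c and 0.0988 in BL6).

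H2-Ob, the beta chain of H2-O, had the largest change with Ro among the members tested. In BALB/c it gave 306 in control, 1521 with Ro, 489.6 with LPS and 749 with Ro and LPS. In BL6 it gave 83.9, 521, 42.5 and 299.8, so each Ro array was above its partner without Ro, although the strains overlapped. The ratio was 1.53-fold to 6.21-fold in 3 pairs, and none is given for BL6 with LPS, where 42.5 lies at the background mark. H2-Ob rose by 1.70 ± 0.40 (3.26-fold, adjusted p = 0.00919). The call was lost without strain in the model (adjusted p = 0.115) and in BALB/c alone (0.252). The probe set shared with Gm20506 rose by 1.52 ± 0.28 (adjusted p = 0.00313), and its Ro signals (212 to 507) did not overlap those without retinoid (38.7 to 162).

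H2-Oa, the alpha chain of H2-O, gave 585 in control and 1781 with Ro in BALB/c, and 558 and 2048 in BL6. With LPS it gave 471 and then 425 with Ro in BALB/c, but 674 and 1649 in BL6. The BALB/c array with Ro and LPS was the only Ro array that was not raised. Averaged over LPS, H2-Oa was higher by 0.91 ± 0.38 (adjusted p = 0.0562), and without that array the change passed (adjusted p = 0.00524).

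Without LPS, 3 members rose with Ro, beside 1.45% of all genes higher and 2.63% past the threshold in either direction: H2-Ob by 2.18 ± 0.42 (4.53-fold, adjusted p = 0.0156), H2-Oa by 1.55 ± 0.40 (2.94-fold, adjusted p = 0.0486) and Ciita by 1.33 ± 0.33 (2.52-fold, adjusted p = 0.0414). With 2 arrays against 2, these calls are fragile. None of the 3 passed without strain in the model (adjusted p = 0.487, 0.272 and 0.24), and each was lost when either control array or either Ro array was left out (adjusted p between 0.0704 and 0.406). H2-Oa was lost under 15 of 22 other settings, Ciita under 9 and H2-Ob under 5.

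With LPS, Ciita rose by 1.08 ± 0.33 (2.12-fold, adjusted p = 0.0163) and H2-Ob by 1.23 ± 0.42 (2.35-fold, adjusted p = 0.0268), beside 16% of all genes higher and 21.5% past the threshold. Neither passed without strain in the model (adjusted p = 0.0797 and 0.39). H2-Ob was also lost after quantile normalization (0.0666) and with arrays scaled to a common median (0.0501), and Ciita with the mean of its probe sets (0.0812). Ciita was lost without the BALB/c LPS array (0.109) or the BL6 array with Ro and LPS (0.155). H2-Ob was lost without the BL6 LPS array (1.52 became 0.73 at the deposited scaling, adjusted p = 0.252), the BALB/c array with Ro and LPS (0.054) or the BL6 array with Ro and LPS (0.192).

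H2-DMa and the chains showed smaller differences with Ro. H2-DMa was higher on all 4 Ro arrays than on their partners, from 1.10-fold to 1.45-fold in signal, with a relative change of 0.14 ± 0.16 that did not pass (adjusted p = 0.123). The brighter probe set shared by H2-DMb1 and H2-DMb2 was higher with Ro in each strain and LPS state, from 1.24-fold to 1.40-fold in deposited signal. The other shared probe set was higher from 1.06-fold to 1.33-fold. The probe sets of H2-DMb2 alone were higher in each state too, from 1.12-fold to 12.1-fold, with the largest ratios in BL6 with LPS. Each ratio is of 1 array to 1 array. The lowest and the highest came from the same probe set with LPS, in BALB/c (1720 against 1537) and BL6 (3521 against 291). H2-Aa, H2-Ab1, H2-Eb1 and Cd74 gave relative changes of -0.23 ± 0.11, -0.14 ± 0.11, -0.08 ± 0.13 and -0.23 ± 0.08, none past the threshold (adjusted p between 0.454 and 0.973). The 4 Ro signals of H2-Eb1 (13072 to 14081) lay above the 4 without retinoid (11502 to 12848) with no overlap. Those of H2-Ab1 (10858 to 11841) lay above 10631 to 10806, and on a second H2-Ab1 probe set 10728 to 12845 lay above 9475 to 10598. On the remaining H2-Ab1 probe set the signals overlapped (8434 to 11326 with Ro against 6472 to 9606). H2-Aa and Cd74 overlapped. These signals are at the deposited scaling, where the median tested gene was higher by 0.22 with Ro. Relative to it H2-Ab1 and H2-Eb1 lay at -0.14 and -0.08. H2-Ea, bright only in BALB/c, gave 0.56 ± 0.40 (adjusted p = 0.182).

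Markers of several cell types moved with Ro. The dendritic cell list summed to 15895 and 15148 with Ro and to 13117 and 13160 in control, and with LPS to 6847 and 6248 against 4562 and 4433. Of its 9 tested genes, 3 rose with Ro averaged over LPS and none fell, and with Ro in the presence of LPS 5 rose and 1 fell. The gene that fell was Itgax, which was lower with Ro in all 4 pairs of arrays (-0.63 ± 0.15 averaged, adjusted p = 0.084, and -0.92 ± 0.20 with LPS, adjusted p = 0.0454). The summed macrophage list was level without LPS, at 58150 and 59716 with Ro and 57820 and 60932 in control. In the presence of LPS it was lower with Ro, at 18244 and 24790 against 52727 and 58135. Of its 10 tested genes 0 rose with Ro. The number that fell was 3 averaged over LPS, 9 with LPS and 1 without it (2 after quantile normalization). The eosinophil and mast cell list summed to 296 and 3867 with Ro against 101 and 478 in control, and with LPS to 50.5 and 722 against 48.3 and 56.2, in BALB/c and BL6, and 2 of its 5 tested genes rose with Ro averaged (1 after quantile normalization). B cells, the main site of H2-O in the body, were represented by a list that summed to 88.0 to 210 over all arrays, and to 88.0 to 147 on the Ro arrays. The part of these lists in the rise of Ciita and H2-Ob was not tested.

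**Figure D3:**
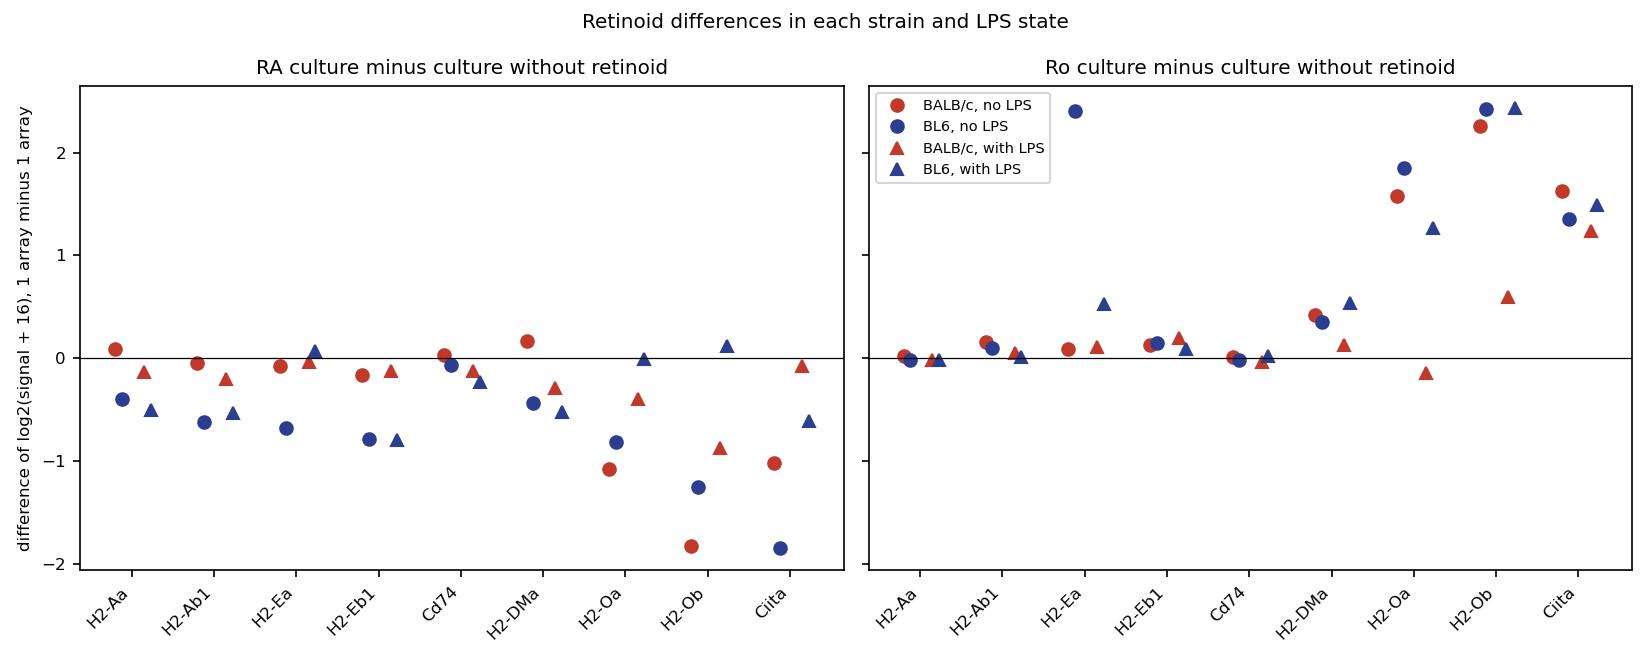
Difference in log2(signal + 16) between a culture with RA (left) or Ro (right) and the culture without retinoid of the same strain and LPS state, 1 array minus 1 array, for 9 members (circles without LPS, triangles with LPS; BALB/c red, BL6 blue). With Ro all 4 points of H2-Ob and Ciita are above 0, and with RA the BL6 points of H2-Aa, H2-Ab1 and H2-Eb1 lie below the BALB/c points.

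For RA, also 4 arrays against the 4 without retinoid, no member passed. The lowest signals of H2-Aa, H2-Ab1 and H2-Eb1 were on the BL6 arrays with RA. Of 9 members 0 passed, beside 0% of all tested genes. At an unadjusted p under 0.05 the limma fit held 1026 genes and 5 of the 9 members, all 5 lower. The same test after quantile normalization called 4 genes, none of them a member (0.0322%).

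H2-Eb1 gave 11466 with RA and 12848 in control in BALB/c, and 6821 against 11745 in BL6. With LPS it gave 10545 against 11502 in BALB/c and 7073 against 12277 in BL6. RA cultures were thus 1.72-fold and 1.74-fold lower in BL6, and 1.12-fold and 1.09-fold lower in BALB/c. H2-Ab1, the partner of H2-Aa, gave 7047 and 7459 on the BL6 arrays with RA and 9371 to 11841 on all BALB/c arrays, and its 4 RA signals lay below the 4 without retinoid. A second H2-Ab1 probe set reached 2573 and 3221 with RA in BL6, against 7031 and 6472 without. Over both strains its RA signals (2573 to 8251) overlapped those without retinoid (6472 to 9606). On another H2-Ab1 probe set they overlapped too (4590 to 9721 against 9475 to 10598). H2-Aa gave 9163 and 8542 on the BL6 arrays with RA, against 11431 or more on the other 10 arrays.

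The RA changes of these genes, averaged over strain and LPS, were -0.49 ± 0.13 for H2-Eb1 (adjusted p = 0.313), -0.37 ± 0.11 for H2-Ab1 (adjusted p = 0.416) and -0.25 ± 0.11 for H2-Aa (adjusted p = 0.605). The difference between the strains in the RA change was tested as an interaction. It was 0.74 ± 0.19 for H2-Eb1, 0.55 ± 0.19 for H2-Ab1 and 0.52 ± 0.18 for H2-Aa. The adjusted p of limma was 0.9997 for each, with 0% of all genes past the threshold. These 3 were the members with an unadjusted p under 0.05, beside 182 of the 12429 tested genes. No member passed in limma's test of strain by Ro (0% of all genes, with 0 members and 439 genes at an unadjusted p under 0.05).

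Ciita and H2-Ob had larger RA differences with wider spread. Ciita was 2.06-fold lower with RA in BALB/c and 3.82-fold lower in BL6 without LPS, but 1.06-fold and 1.57-fold lower with LPS. H2-Ob was 4.09-fold lower in BALB/c without LPS and 1.88-fold lower with it. In BL6 H2-Ob was 26.1 with RA against 83.9 in control, and with LPS 47.6 against 42.5, around background. The averaged changes were -0.90 ± 0.29 for Ciita (adjusted p = 0.461) and -0.97 ± 0.40 for H2-Ob (adjusted p = 0.563).

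In the comparison of RA without LPS the changes were -1.40 ± 0.33 for Ciita (adjusted p = 0.139), -1.51 ± 0.42 for H2-Ob (adjusted p = 0.238) and -0.91 ± 0.40 for H2-Oa (adjusted p = 0.617). No member passed by limma, beside 0.129% of all genes, and 4 members and 914 of the 12429 tested genes had an unadjusted p under 0.05. All 3 passed as lower when only the 4 arrays of the 2 conditions were fitted (adjusted p = 0.00445, 0.00479 and 0.00932), where 885 genes passed in place of 16. With LPS no member and 0% of all genes passed, and 2 members and 1139 of all tested genes had an unadjusted p under 0.05. The dendritic cell list summed to 8713 and 9238 with RA without LPS and to 13117 and 13160 in control, in BALB/c and BL6. The macrophage list summed to 77339 and 77325 with RA against 57820 and 60932, and the granulocyte list to 51859 and 27643 against 22022 and 16110. No gene of these lists passed, and their part in these values was not tested.

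BALB/c and BL6 were compared over 6 arrays each, which are the 6 conditions of that strain. The replicate number is the strain, so a difference between strains cannot be told apart from a difference between the replicates. H2-Ea and H2-Ob were higher in BALB/c, and different probe sets of the same gene disagreed on the strain difference of H2-Aa, H2-Ob and the H2-DMb genes. Of 9 members, 2 were higher and 0 lower in BALB/c, beside 11.4% and 3.81% of all genes (7.19% and 8.09% after quantile normalization; 15.2% in all). Class II genes differ in sequence between H2 haplotypes, so how well the probes match a strain's transcript and how much of it there was cannot be told apart.

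H2-Ea encodes the alpha chain that pairs with H2-Eb1. On the BALB/c arrays it gave 9724 at the lowest, 10491 at the median and 11444 at the highest. On the BL6 arrays it gave 14.2 at the lowest, 29.8 at the median and 239 at the highest, with 4 of 6 below background, so the strains did not overlap. The difference was 7.35 ± 0.33 (adjusted p = 5.61e-08), a size that depends on the added 16. A second probe set gave 7316 to 9968 in BALB/c and 7.21 to 90.6 in BL6 (difference 7.50 ± 0.25, adjusted p = 1.17e-09), and another gave 1.10 to 11.4 on all arrays of both strains and was not kept. H2-Eb1, its partner, was at 10545 to 14081 in BALB/c and 6821 to 13099 in BL6, and did not differ beyond the spread (0.10 ± 0.11, adjusted p = 0.145).

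H2-Ob was higher in BALB/c in all 6 conditions (1.66 ± 0.33, adjusted p = 0.00411). In control, Ro, and Ro with LPS, the ratio was 2.50-fold to 3.65-fold. In the other 3 conditions the BL6 signals were 26.1 to 47.6, around the background mark, and no fold is given. The probe set shared with Gm20506 was lower in BALB/c in 5 of the 6 conditions and did not pass (-0.74 ± 0.23, adjusted p = 0.0882). H2-Aa did not differ by its brightest probe set (0.03 ± 0.09, adjusted p = 0.205). A dim H2-Aa probe set gave 96.9 to 239 in BALB/c and 379.6 to 2230 in BL6, with no overlap (-2.94 ± 0.29, adjusted p = 4.96e-05), while a bright one was higher in BALB/c, 10128 to 12951 against 4319 to 10234 (0.53 ± 0.13, adjusted p = 0.00538). Of the shared H2-DMb probe sets the brighter was higher in BALB/c (0.37 ± 0.13, adjusted p = 0.0200) and the other gave -0.64 ± 0.18 (adjusted p = 0.0807). A dimmer H2-Ab1 probe set was also higher in BALB/c (0.57 ± 0.17, adjusted p = 0.0155). The background over probe sets was 15.4%.

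**Figure D4:**
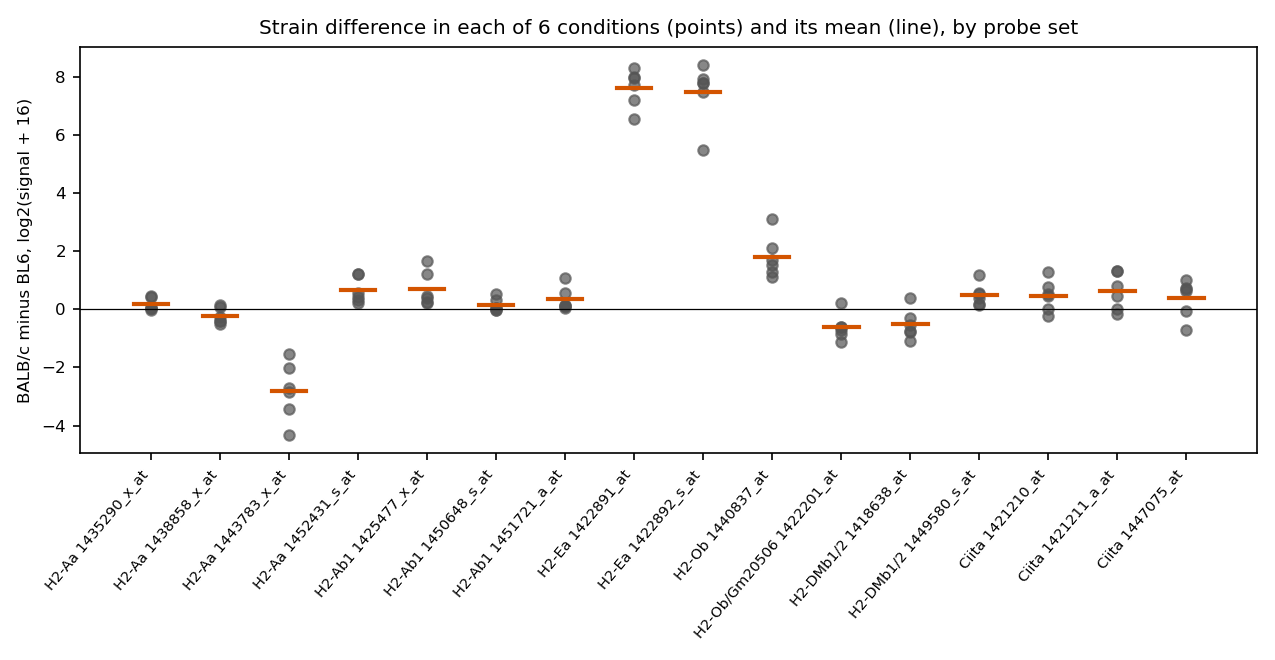
Difference in log2(signal + 16) between BALB/c and BL6 in each of the 6 conditions (points) with their mean (line), for the kept probe sets of members with more than 1 probe set on the array (H2-DMa is not drawn). Both H2-Ea probe sets lie above 5 in all conditions, whereas the probe sets of H2-Aa fall on both sides of 0, as do those of H2-Ob and of the H2-DMb pair.

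The members did not move as 1 block across the arrays. Over the 6 arrays without LPS, H2-Ab1 and H2-Eb1 correlated at r = 0.989 in log2 signal, and over the 6 with LPS at 0.983. Ciita correlated with H2-Ob at 0.971 without LPS and 0.637 with LPS, with H2-Eb1 at 0.892 and 0.774, and with Cd74 at 0.380 and 0.624. By the lower of both correlations with Ciita, H2-Eb1 ranked 943, H2-Ob 2107 and Cd74 4368 among the 12429 tested genes. H2-Oa and H2-Ob, the partner chains, went from 0.888 without LPS to -0.23 with it. These correlations are descriptions over 6 arrays of shared conditions and strains, without a test.

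Outside the members, the genes whose pattern was most like that of Ciita by the lower of its correlations without and with LPS were Polr3c (0.990), Prkag2 (0.982), Ahcyl2 (0.979), Asap1 (0.976) and Phc1 (0.976). The genes most like the mean of H2-Aa, H2-Ab1, H2-Eb1 and Cd74 were Heyl (0.944), Eln (0.931), Pheta1 (0.924), Paip2 (0.901) and Aif1l (0.888). Polr3c, a subunit of RNA polymerase III, gave 1140 and 920 with Ro, 771 and 621 in control, and 529 and 429 with RA in BALB/c and BL6. That is the order of Ciita without LPS, with Ro highest and RA lowest, and Polr3c was named for that likeness. With Ro and LPS Polr3c gave 1274 and 1483, above its values with Ro alone, whereas Ciita was lower with Ro and LPS than with Ro alone. Paip2 gave 1647 and 1496 on the BL6 arrays with RA and 2062 or more on the other 10 arrays. Heyl lay near background, at 6.82 to 42.4. Eln (15.1 to 75.4), Aif1l (4.69 to 96.85) and Pheta1 (25.25 to 114.8) were below background on some arrays.

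Genes that act on the class II pathway from outside were counted in 4 lists. The enhanceosome list holds the factors that bind the X and Y boxes. With LPS 1 of its 7 tested genes rose and 3 fell (4 and 1 after quantile normalization). Nfyc, a subunit of NF-Y, fell by 0.46 ± 0.17 (adjusted p = 6.99e-04). Creb1 and the NF-Y subunit Nfya passed as lower at the deposited scaling (adjusted p = 0.0172 and 0.027) but lay at -0.02 ± 0.14 and -0.05 ± 0.16 relative to the median gene, and after quantile normalization neither passed. With Ro averaged over LPS and with RA 0 of the 7 passed, with or without quantile normalization. With Ro in the presence of LPS Nfyc rose (0.60 ± 0.24, adjusted p = 0.0249), a call lost after quantile normalization (0.0526), where Nfyb passed as lower instead (0.0202). Between strains Creb1 was higher in BALB/c (0.36 ± 0.14, adjusted p = 0.0273), which was lost after quantile normalization (0.0957).

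The list of regulators of Ciita transcription had 9 tested genes. With Ro 3 rose and 0 fell (3 and 2 after quantile normalization): Bcl6, a transcriptional repressor, rose by 1.45 ± 0.28 (adjusted p = 0.00349), Irf4, an interferon regulatory factor of dendritic cells and B cells, rose by 1.42 ± 0.32 (adjusted p = 0.00746), and Tcf4, the E protein of plasmacytoid dendritic cells, rose by 0.91 ± 0.27 (adjusted p = 0.0169). With Ro in the presence of LPS 5 rose and 0 fell, led by Bcl6, Irf4 and Irf8 (5 and 1 after quantile normalization), and without LPS Bcl6 alone rose (1.29 ± 0.28, adjusted p = 0.0207). With LPS 2 rose and 3 fell (5 and 2 after quantile normalization). Irf8 rose by 1.52 ± 0.22 (adjusted p = 8.66e-04), Irf1 rose by 1.13 ± 0.15 (adjusted p = 0.00112), and Spi1, which encodes PU.1, fell by 0.56 ± 0.13 (adjusted p = 4.36e-05). Between strains Usf1 was higher in BALB/c (1.70 ± 0.19, adjusted p = 1.26e-04).

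The list of peptide and invariant chain processing held 10 tested genes, mostly cathepsins of the endosome. With Ro 0 rose and 3 fell: the cathepsins Ctsl by 1.79 ± 0.24 (adjusted p = 0.00246), Ctsd by 1.09 ± 0.11 (adjusted p = 0.00101) and Ctsb by 0.77 ± 0.11 (adjusted p = 0.00661). Without LPS 2 fell with Ro, Ctsd by 1.08 ± 0.16 (adjusted p = 0.0137) and Lgmn by 1.09 ± 0.18 (adjusted p = 0.0212). Of the 10 macrophage markers given above, 9 fell with Ro in the presence of LPS and 1 without LPS, and their part in these falls was not tested. With LPS 2 rose and 0 fell: Sppl2a, the protease that clears the last invariant chain fragment, by 1.66 ± 0.14 (adjusted p = 1.27e-05) and Ctsz by 0.61 ± 0.07 (adjusted p = 0.0187). Between strains Sppl2a was higher in BALB/c (0.67 ± 0.14, adjusted p = 0.00288) and Ctsh lower (-0.59 ± 0.14, adjusted p = 0.0457), the latter lost after quantile normalization (0.0732).

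The surface turnover list held 6 tested genes. With LPS 2 rose and 3 fell: Cd83, which protects class II from ubiquitination, rose by 2.10 ± 0.18 (adjusted p = 9.87e-06), Marchf8, a ligase related to Marchf1, fell by 0.53 ± 0.17 (adjusted p = 5.88e-04), and Ap2m1, a clathrin adaptor subunit, fell by 0.52 ± 0.13 (adjusted p = 6.83e-05). With Ro Cd82, a tetraspanin, rose by 0.72 ± 0.17 (adjusted p = 0.00433) and Cd83 rose by 0.77 ± 0.22 (adjusted p = 0.012). Marchf1, the ligase that ubiquitinates class II, fell with Ro in the presence of LPS by 1.87 ± 0.48 (adjusted p = 0.038), where Cd82 rose by 0.44 ± 0.21 (adjusted p = 0.0312). No gene of the 4 lists passed with RA averaged over LPS.

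**Figure D5:**
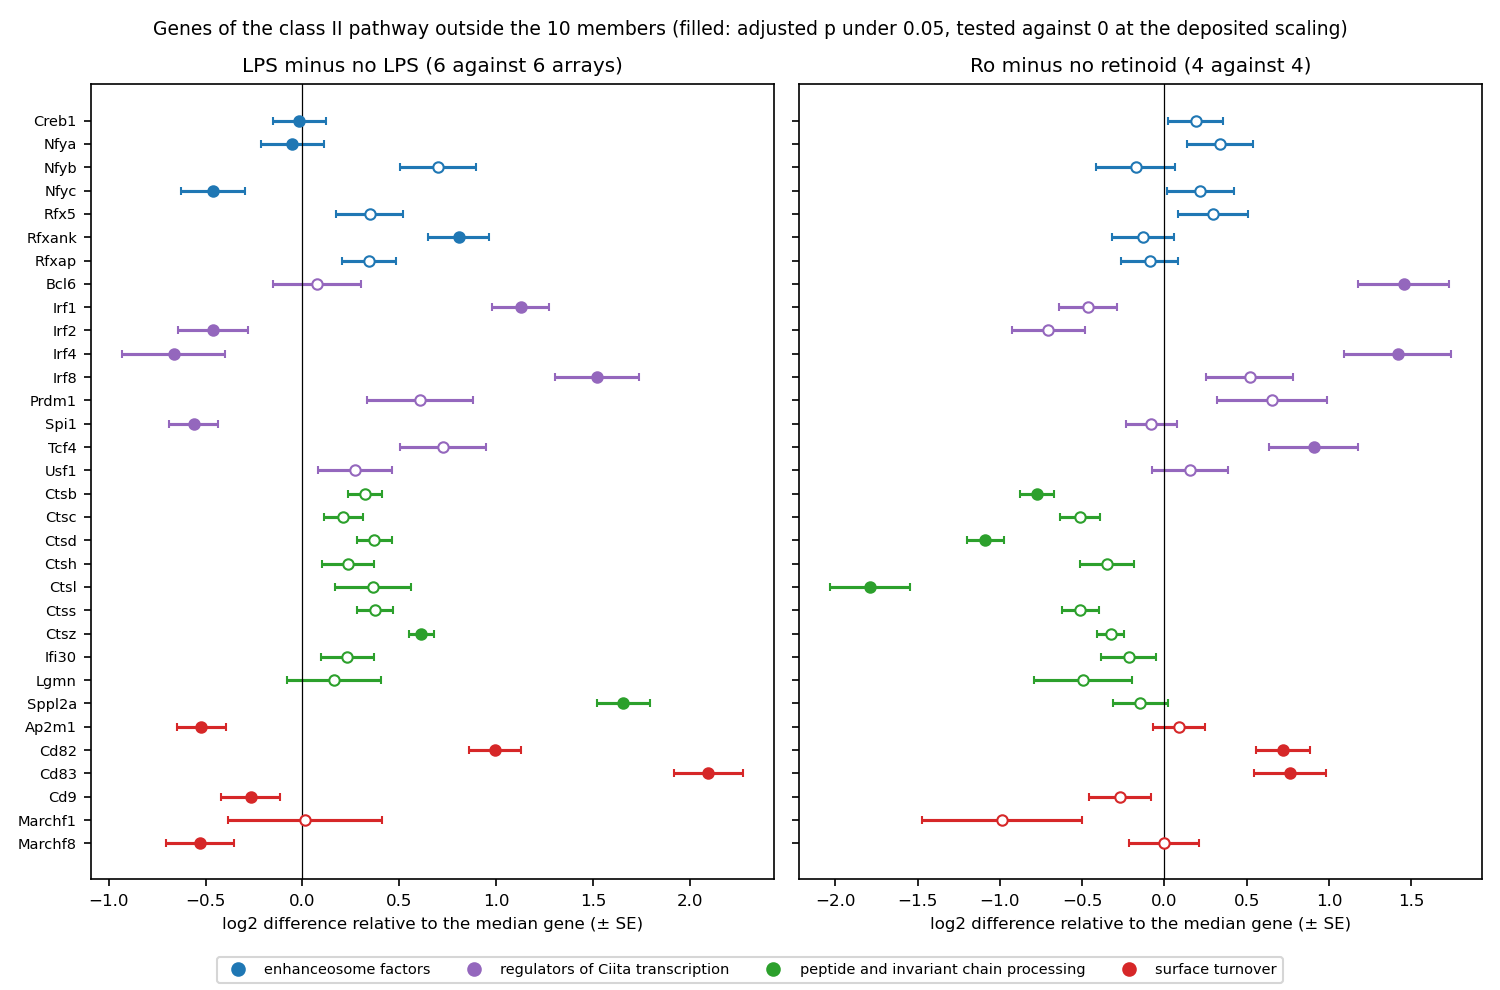
Log2 difference relative to the median gene (± SE of the limma fit) of the tested genes of 4 pathway lists with LPS (left) and with Ro (right), filled where the adjusted p, taken against 0 at the deposited scaling, was under 0.05. Cd83, Sppl2a and Irf8 are highest with LPS, and with Ro Bcl6 and Irf4 are highest while Ctsl, Ctsd and Ctsb are lower.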

How the data were processed

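Messenger RNA of 12 cultures was measured on 12 single-colour Affymetrix arrays, 1 per culture. The authors deposited probe set intensity values on a linear scale. The submitters' processing notes name MAS5, and its version and scaling target are not given in the sources used here. The array medians ran from 21.4 to 41.8 and the trimmed means (2% off each end) from 158.5 to 263, and their number, 2 arrays per condition, limits the precision.

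Of 45101 probe sets, 34945 name 1 gene, 932 name more than 1, 9160 name no gene and 64 are controls. Gene identifiers of 34741 single-gene probe sets matched the reference gene table, and 0 symbols were updated. The values were analysed as log2(signal + 16), which makes changes at low signal look smaller. The filter kept a probe set that exceeded the array's median on 2 or more arrays, and a gene was represented by its kept single-gene probe set of highest mean (12429 of 18193 genes). The tests used lmFit and eBayes (with an intensity trend) of limma 3.58.1, under R 4.3.3, with Benjamini-Hochberg adjustment. Averaged comparisons came from retinoid, LPS and strain on all arrays, and single comparisons from the 6 conditions and strain. Interactions with strain were added 1 at a time. The replicate number is the strain, so it pairs the arrays: deviations from condition means correlated within strains over all 15 pairs of conditions (r from 0.297 to 0.696), and strain is a block in every model. The model was tested on simulated data.

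Text names the 10 members, up to 3 genes per pathway list by smallest adjusted p, and the 5 genes most like Ciita or the chains. The members and lists were chosen with earlier results of these data known. Alternatives were quantile normalization, scaling to a common median, other added constants (1 and 64), no filter, each probe set or the mean of a gene's probe sets, no intensity trend, no strain block, single strains, and each array left out. Figures were drawn with matplotlib 3.10.9 under Python 3.11.15, and tables with numpy 2.4.6 and pandas 2.3.3.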

Additional observations from a re-analysis of the deposited data

Results flagged for a closer look

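In groups of 4 or 6 arrays, the highest or lowest value was checked against Dixon's 95% critical value. Chance passes it in about 1 in 20 groups of like arrays. These groups mix conditions or strains, so that rate does not apply to them. Of 63 groups of members tested, 10 passed, and most of them rest on the same few arrays, so they are not independent. The BL6 arrays with RA stood apart as lowest for the chains. The BL6 array with RA gave the lowest signal without LPS for H2-Eb1 (6821.3), H2-Ab1 (7046.9) and H2-Aa (9162.6). The BL6 array with RA and LPS gave the lowest signal with LPS for H2-Eb1 (7073.2) and H2-Aa (8542.4), and the lowest BL6 signal for Cd74 (12083).

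On the Ro arrays, the BALB/c array with Ro and LPS was far below the others for H2-Oa (424.62), the BALB/c array with Ro was above the others for H2-Eb1 (14081), and the BL6 array with Ro was above the other BL6 arrays for H2-Ea (239.07). Among the arrays without retinoid, the BALB/c array with LPS was above the others for H2-Aa (12561).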

How the results depend on the processing

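Strain, the replicate number, was a block in the model. Without this replicate block the members past the threshold went from 2 to 1 for Ro averaged over LPS, from 3 to 0 for Ro without LPS and from 2 to 0 for Ro with LPS, and all genes past it from 2287 to 943, from 327 to 55 and from 2674 to 961. For LPS averaged, 2 members passed at the deposited scaling, 1 after quantile normalization, 5 with arrays scaled to a common median and 1 in BL6 alone. For LPS without retinoid the count went from 2 to 5 with a common median. For LPS in RA cultures it went from 1 to 3 under both scalings. For Ro averaged it went from 2 to 0 in BALB/c alone (132 genes) and 1 in BL6 alone (188 genes). For Ro without LPS it went from 3 to 1 with an added 1 (196 genes), without the filter or without the intensity trend. For Ro with LPS it went from 2 to 1 under both scalings and with the mean of a gene's probe sets. For RA without LPS it went from 0 to 3 with only the 4 arrays. Leaving out each array in turn, members past the threshold ranged from 1 to 2 for LPS without retinoid and for LPS in RA cultures, from 1 to 3 for LPS in Ro cultures, from 0 to 3 for Ro without LPS and from 0 to 2 for Ro with LPS. All genes past it then ranged from 858 (without the BALB/c LPS array) to 2557 for Ro averaged, from 59 (without the BL6 control array) to 426 for Ro without LPS, from 3014 (without the BALB/c control array) to 5937 for LPS without retinoid, and from 847 (without the BL6 LPS array) to 3223 for Ro with LPS. For LPS in RA cultures they ranged from 1730 (without the BALB/c RA array) to 4369 against 4349, for LPS in Ro cultures from 1714 (without the BALB/c Ro array) to 4133 against 3709, between strains from 1174 (without the BALB/c control array) to 1899 against 1889, and for the Ro by LPS interaction from 5 (without the BALB/c array with Ro and LPS) to 166 against 83. No member that had passed changed direction in any other setting. Members that had not passed could change sign: H2-Aa, H2-Ab1, H2-Eb1 and Cd74 lay just below 0 with LPS at the deposited scaling. With arrays scaled to a common median they passed as higher. H2-DMa with LPS and H2-Ea between strains passed in all settings run (23 and 20). The causes of the moves were not tested, beyond fewer arrays in the fits of 1 strain, of 4 arrays and with 1 array left out. Signals near the top of the scale (the chains and Cd74) and near background (H2-Ea and H2-Ob in BL6) limit what these arrays can show.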
